A study of Mus musculus with 8 samples.

Results

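The cytosolic ribosomal protein genes encode the proteins of the ribosome that works in the cytoplasm. They were followed here on 8 single-colour Agilent arrays of mouse skin carcinoma cells given miR-193b-3p, miR-365a-3p or a control microRNA. A gene belonged to the family if the array's own gene name had the form of a ribosomal protein symbol (Rpl or Rps with a number and at most a short suffix, or Rplp0 to Rplp2). This took 83 of 30199 gene names, 50 of the large subunit (Rpl) and 33 of the small subunit (Rps), read by 187 probes. The brightest probe stood for each gene. Of the 83 genes, 81 were bright enough to test, among 17865 genes tested in all, and 80 were well above background on every array.

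All RNA came from mSCC-20, a line of cutaneous squamous cell carcinoma of FVB/N mice. The microRNA groups were miR-193b (2 arrays) and miR-365a (2 arrays), and the control, miR-NC1, is called NC (4 arrays). The labels give a starting amount of 0.2 µg for both miR-193b arrays and NC replicates 1 and 2, called the 0.2 set, and of 0.6 µg for both miR-365a arrays and NC replicates 3 and 4, called the 0.6 set. NC arrays served as control only for the microRNA that shares their amount label. Nothing in the labels says that the arrays of a group came from separate cultures. The p-values therefore reflect the spread among arrays, which may be technical.

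As background, each ribosome carries 1 copy of nearly every ribosomal protein, and the proteins not built into a particle are degraded. Most ribosomal protein mRNAs begin with a C followed by a run of pyrimidines, the 5′ TOP tract, through which the kinase complex mTORC1 and the protein LARP1 control their translation, so their output can change with no change in mRNA level. Arrays measure mRNA level alone. Many of these genes also have processed pseudogenes, so a probe can read near-identical copies.

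The mature microRNAs are shown because the transfected molecules define the groups. Their sequences are those of RefSeq on GRCm38.p6, 5′ to 3′, with the seed (bases 2 to 8) in capitals. RefSeq names the second one miR-365 without the letter.
mmu-miR-193b-3p: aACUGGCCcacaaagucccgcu
mmu-miR-365-3p: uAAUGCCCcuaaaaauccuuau
The miR-193b entry lies at chr16:13449570-13449591 (+), in the Mir193b gene. The miR-365 sequence is encoded at chr16:13453895-13453916 (+) in Mir365-1 and again at chr11:79726467-79726488 (+) in Mir365-2. The seeds differ, so the microRNAs do not form a seed family.

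The start sites of 6 family members are shown next, for the tract that marks this gene family and for the paralogs described further on. Each run is 30 bases of the RefSeq promoter table on GRCm38.p6, 15 before and 15 from the annotated start, read on the gene's strand. Capitals mark the longest run of C and T that begins with C within 5 bases of the start.
Rps6, chr4:86857353-86857382 (-): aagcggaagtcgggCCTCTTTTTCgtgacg
Rplp2, chr7:141447636-141447665 (+): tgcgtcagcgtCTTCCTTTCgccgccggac
Rpl39, chrX:37085208-37085237 (-): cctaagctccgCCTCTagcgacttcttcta
Rpl39l, chr16:10170213-10170242 (+): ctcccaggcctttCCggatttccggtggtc
Rps27, chr3:90213634-90213663 (-): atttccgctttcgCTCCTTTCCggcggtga
Rps27l, chr9:66946071-66946100 (+): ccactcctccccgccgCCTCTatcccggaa
Of the family, 61 genes matched the table, with 73 promoters. A run of at least 5 such bases stood at 31 of the 73 promoters (42.5%), against 18.3% of all 32851 promoters in the table. Rps6 and Rplp2 have long runs. Under this rule the run marked in Rpl39l is CC, and that in its partner Rpl39 is CCTCT. The CC of Rpl39l ends a longer pyrimidine stretch, cctttCC. That stretch begins more than 5 bases before the start, so the rule does not count it whole. The table gives Rps27l another start, at chr9:66946398-66946427 (+), with a run of 2. A match describes these letters at an annotated start, which need not be the start used in these cells.

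The 0.6 set gave brighter arrays. The share of the 43020 gene spots that passed the scanner software's test of being well above background was 58.9% to 62.1% there, against 51.4% to 54.6% for the 0.2 set. No gene spot was saturated, and the brightest ribosomal protein probe reached 48.6% to 64.2% of the saturation value, depending on the array. All 11 keratinocyte markers examined, Krt5, Krt14 and Trp63 among them, passed that test on all 8. Of the other cell types, that held for 1 of 6 fibroblast markers (Pdgfra), 3 of 6 leukocyte markers (Cd3e, Cd68 and Itgam), 2 of 5 melanocyte markers (Mitf and Mlana) and 2 of 5 endothelial markers (Kdr and Esam), and so for 8 of 22 in all. Another 6 passed on some arrays (Col1a1, Col1a2, Ptprc, Tyr, Pmel and Pecam1), and 8 passed on none, Col3a1, Dcn, Lum, Lyz2, Dct, Cdh5 and Tek among them.

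The ribosomal protein genes moved up or down together from array to array. Levels are given below as log2 of the signal relative to the array's 75th percentile of gene spots. Set against the NC mean of the 0.2 set, the median of the 80 genes above background stood at 0.18 on miR-193b replicate 1 and 0.31 on miR-193b replicate 2, against -0.16 on NC replicate 1 and 0.16 on NC replicate 2. In the 0.6 set it stood at -0.17 on miR-365a replicate 1 and 0.11 on miR-365a replicate 2, against -0.053 on NC replicate 3 and 0.053 on NC replicate 4. NC replicate 1 and miR-365a replicate 1 were the low arrays of their sets. The NC values of a set mirror each other because their own mean was subtracted.

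**Figure D1:**
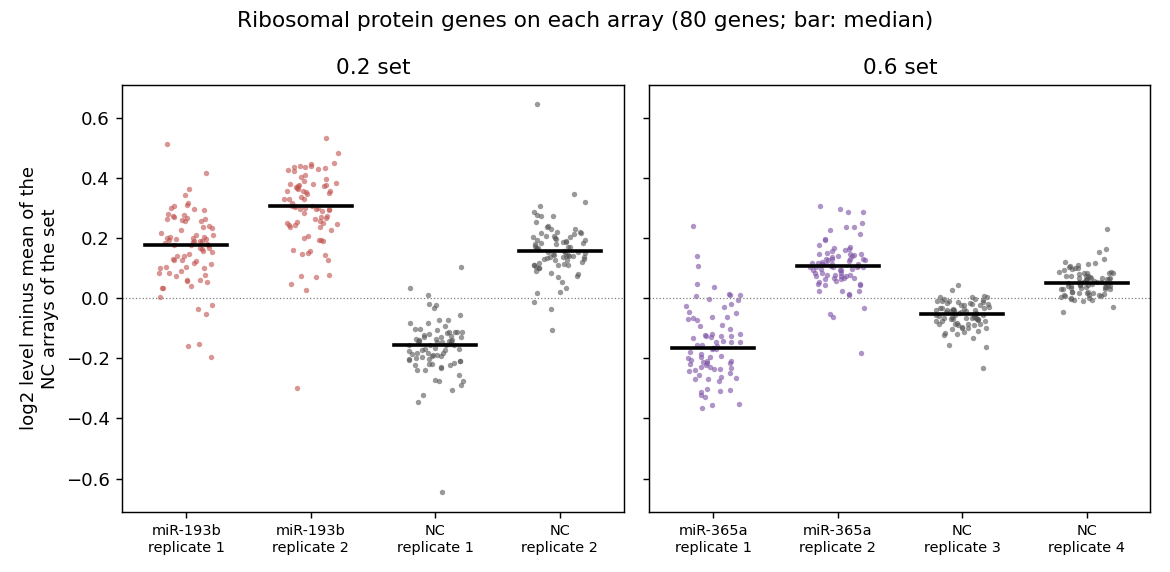
Log2 level of 80 ribosomal protein genes on each array, minus each gene's mean over the NC arrays of the same set (vertical axis), by array (horizontal axis), for the 0.2 set (left) and the 0.6 set (right); points are genes and bars are medians. The cloud moves as a whole, with medians of 0.18 and 0.31 on the miR-193b arrays, against -0.16 and 0.16 on the NC arrays of that set.

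Between arrays of 1 group this joint movement reached sizes like those between groups. NC replicate 2 exceeded NC replicate 1 by a median of 0.31, with 77 of 80 genes higher. MiR-365a replicate 2 exceeded miR-365a replicate 1 by a median of 0.26, with 80 of 80 genes higher. The corresponding medians were 0.13 between the miR-193b arrays and 0.11 between NC replicates 4 and 3. Over all genes tested these replicate differences had medians of 0.025 to 0.067. What moved the arrays of a group apart was not tested.

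The first comparison asked whether miR-193b changed the mRNAs of the translation machinery. None of the 81 ribosomal protein genes passed the test (limma with Benjamini-Hochberg adjustment over all 17865 genes, adjusted p under 0.05), while 517 genes, or 2.89%, passed over the whole array. Of the 80 genes above background on every array, 0 reached an unadjusted p under 0.05, against 21.4% of all genes tested, and the smallest adjusted p was 0.275, for Rpl36a. The 1 further gene tested, the dim Rpl3l, passed the filter on low signal only through its miR-193b arrays and is described with the dim members. No setting of the processing tried made a call in this comparison.

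Their log2 differences were narrow and mostly above 0. The median was 0.24 over the 80 bright genes, with 77 of 80 above 0, where 55.6% of all genes were above 0 with a median of 0.049. The large subunit (median 0.24, 48 genes) and the small subunit (median 0.24, 32 genes) had like values. On single arrays, both miR-193b values lay above both NC values for 44 of the 80 genes (29.9% of all genes tested), both lay below for 1 (22.4% of all genes), and for 35 genes the arrays overlapped. The size of the shift depended on which NC array was kept and on the scaling. Leaving out NC replicate 1 gave a median of 0.071, and leaving out NC replicate 2 gave 0.40. It was 0.033 after quantile normalization, with 52 of 81 genes above 0, and 0.0051 in the deposited log2 values, with 42 above 0.

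The slides of the 0.2 set gave different sizes too. On slide 1, which held both groups, miR-193b replicate 1 exceeded NC replicate 1 by a median of 0.33 over the 80 genes. MiR-193b replicate 2 on slide 3 exceeded NC replicate 2 on slide 2 by a median of 0.13. Genes above 0 numbered 76 and 73 in these pairs.

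The P stalk proteins Rplp0, Rplp1 and Rplp2 recruit elongation factors to the large subunit. Rplp0 had levels of 8.07 and 8.12 on the miR-193b arrays, against 7.74 and 8.01 on the NC arrays, given in replicate order here and throughout. The difference was 0.22 ± 0.18 (log2, SE of the fit). Rplp1 had 7.93 and 8.05, against 7.51 and 7.81 on NC, and Rplp2 had 8.22 and 8.35, against 7.88 and 8.14 on NC. For all 3 genes both miR-193b arrays lay above both NC arrays, and no difference passed the test (adjusted p = 0.51 for Rplp0, 0.307 for Rplp1 and 0.384 for Rplp2).

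Rpl5 and Rpl11 form a particle with 5S rRNA that can bind and inhibit the ubiquitin ligase MDM2 when ribosome assembly fails. Rpl11 had 7.70 and 7.78 on the miR-193b arrays, against 7.36 and 7.65 on NC, a difference of 0.23 ± 0.14. Rpl5 had 5.38 and 5.48, against 5.0 and 5.45 on NC, where NC replicate 1 alone was low and the arrays overlapped. Rps6, the small subunit protein that S6 kinases phosphorylate below mTORC1, had 7.37 and 7.44, against 7.26 and 7.48 on NC. Its arrays overlapped and its difference, 0.039 ± 0.13, was among the lowest of the family. Rps27a, made as a fusion with ubiquitin, had 8.22 and 8.40, against 7.80 and 8.24 on NC, again with only NC replicate 1 apart.

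The highest differences in this comparison belonged to Rps21, Rps3, Rps15a, Rpl36a, Rpl4, Rpl35, Rps20 and Rps25. Rps21, a small subunit protein, had 4.95 and 4.97 on the miR-193b arrays, against 3.79 and 5.08 on NC. Its difference of 0.52 ± 0.39 thus came from NC replicate 1 alone, and NC replicate 2 was the highest of the 4 arrays. Rps3, a small subunit protein at the mRNA entry channel, had 6.49 and 6.52, against 5.72 and 6.42 on NC. Both miR-193b arrays lay above both NC arrays, by 0.43 ± 0.23 on average, with an adjusted p of 0.319. For Rps15a, Rpl36a, Rpl4, Rps20 and Rps25 the arrays did not overlap either, and the differences ran from 0.35 to 0.40. The arrays of Rpl35 overlapped.

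The lowest differences belonged to Rpl7l1, Rps15, Rpl17, Rps18, Rps2, Rps6, Rpl13 and Rps19. Rpl7l1, a paralog of Rpl7 that has been placed in nucleolar ribosome assembly, was the only gene of the 80 with both miR-193b arrays below both NC arrays. It had -0.07 and -0.17 on the miR-193b arrays, against 0.23 and 0.02 on NC. The difference was -0.25 ± 0.12 with an adjusted p of 0.303. The other 7 lay between -0.066 for Rps15 and 0.091 for Rps19, and their arrays overlapped.

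The same question was then put for miR-365a. None of the 81 genes passed the test, although 2846 genes, or 15.9% of those tested, passed over the whole array. None reached an unadjusted p under 0.05 either, against 31.4% of all genes, and the smallest adjusted p was 0.202, for Rpl7l1. No setting of the processing tried made a call here, the fits that left out 1 array included.

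The ribosomal protein genes stayed close together and close to 0. Their median difference was -0.033, with 30 above 0 and 51 below 0 (47.0% of all genes lay below 0), and the median over all genes was 0.023. The SD of the differences over the 80 genes was 0.088, against 0.53 over the 14575 genes tested that were well above background on every array. In the miR-193b comparison these SDs were 0.12 and 0.39. On single arrays, both miR-365a values lay above both NC values for 6 of the 80 genes (33.7% of all genes tested), both lay below for 3 (27.8% of all genes), and the arrays overlapped for 71. The median ran from -0.17 to 0.11 as arrays were left out in turn, and was 0.019 after quantile normalization, so its sign is not settled.

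**Figure D2:**
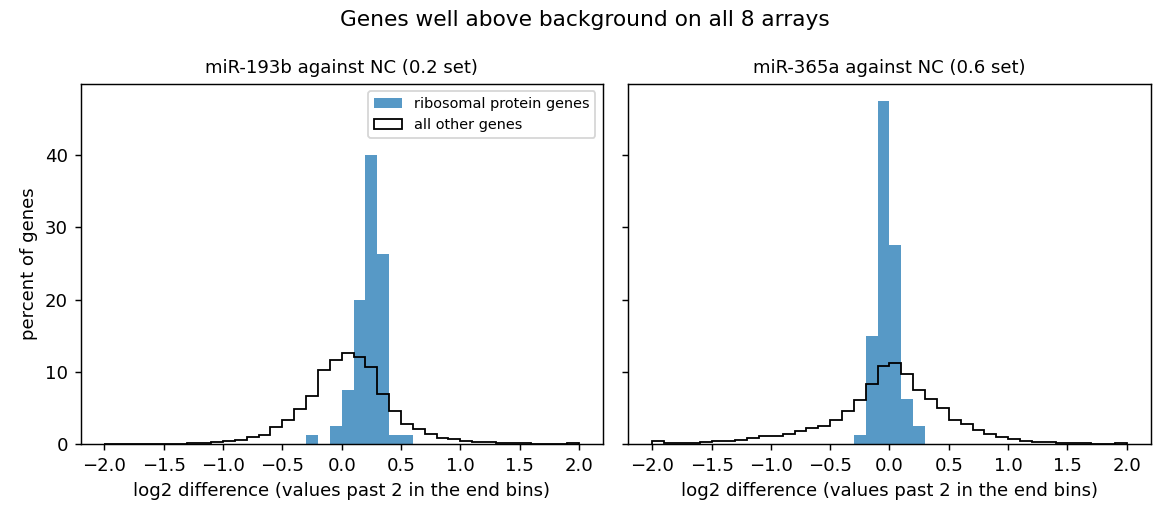
Distribution of the log2 difference between each microRNA and the NC arrays of its set (horizontal axis) as percent of genes (vertical axis), for the ribosomal protein genes (filled, 80 genes) and all other genes (line) that were bright enough on all 8 arrays. After miR-365a the ribosomal protein genes form a narrow peak at a median of -0.033 (SD 0.088).

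The intervals give the range of change for each gene by itself, under the main scaling and the spread among these arrays. They do not cover the choice of scaling or a joint shift of the family. Over the 80 genes, the 95% intervals reached from -0.54 to 1.47 after miR-193b and from -0.88 to 1.01 after miR-365a on the log2 scale. For 79 of 80 genes in each comparison the whole interval lay within a 2-fold change either way. The exception in both was Rps21. The interval lay within 1.5-fold for 69 genes after miR-365a and for 30 after miR-193b.

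**Figure D3:**
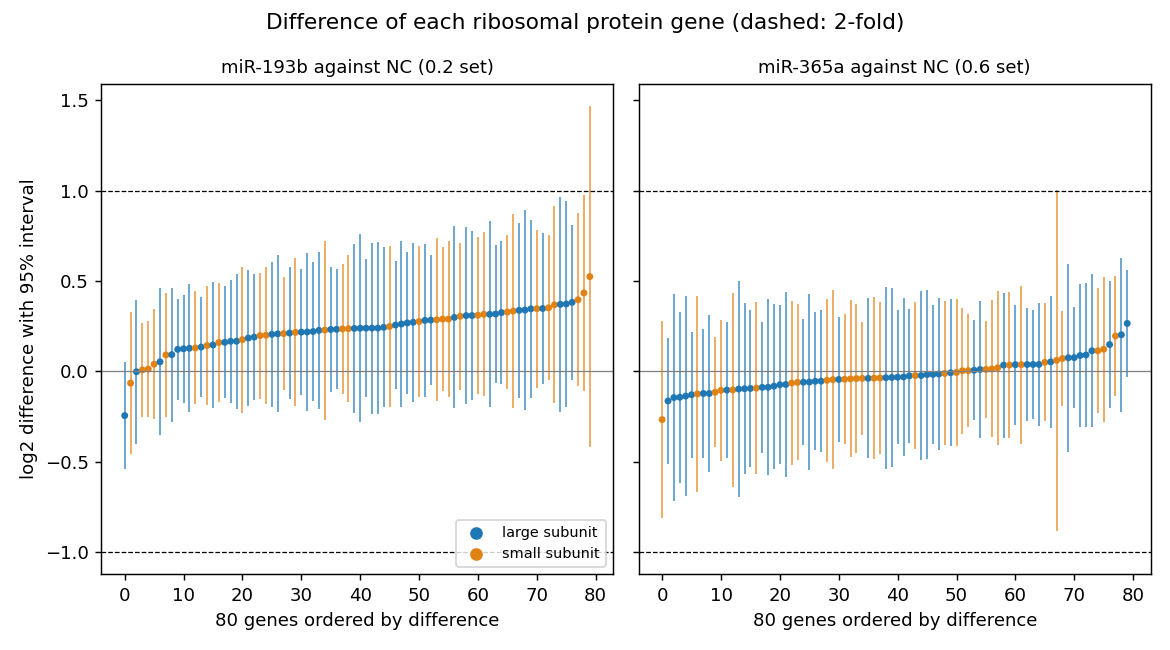
Log2 difference of each of 80 ribosomal protein genes (points) with its 95% interval from the fit (lines), ordered by size within each panel, for miR-193b against NC in the 0.2 set (left) and miR-365a against NC in the 0.6 set (right); colours give the subunit and dashed lines a 2-fold change. In each panel 79 of 80 intervals lie between the dashed lines, and Rps21 has the widest.

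Among the P stalk genes, Rplp0 had levels of 7.68 and 8.09 on the miR-365a arrays, against 7.89 and 8.07 on NC. Rplp1 had 7.90 and 8.19, against 7.88 and 8.03 on NC, and Rplp2 had 7.79 and 8.11, against 7.94 and 8.08 on NC. The arrays of all 3 overlapped, with differences of -0.095, 0.087 and -0.055. Rpl11 had 7.49 and 7.69, against 7.67 and 7.78 on NC (-0.13 ± 0.14), and Rpl5 had 5.44 and 5.48, against 5.43 and 5.42 on NC (0.034 ± 0.17). Rps6 had 7.38 and 7.51, against 7.52 and 7.59 on NC, with both miR-365a arrays lower, a difference of -0.12 ± 0.13 and an adjusted p of 0.61. Rps27a had 7.92 and 8.19, against 8.04 and 8.17 on NC, and overlapped.

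The lowest differences after miR-365a belonged to Rps3, Rpl3, Rpl4, Rpl8, Rpl7a, Rpl11, Rps20 and Rpl10. Rps3 had 6.27 and 6.44 on the miR-365a arrays, against 6.59 and 6.65 on NC, a difference of -0.27 ± 0.23 (adjusted p = 0.495). Rpl3, a core protein near the peptidyl transferase centre, had 6.78 and 6.98, against 7.01 and 7.08 on NC, a difference of -0.16 ± 0.14. For both genes the miR-365a arrays lay below the NC arrays without overlap. The other 6 lay between -0.15 and -0.12 with overlapping arrays.

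The highest differences belonged to Rpl7l1, Rpl36a, Rps27l, Rpl29, Rps25, Rpl39, Rps19 and Rpl17. Rpl7l1 had 0.28 and 0.33 on the miR-365a arrays, against 0.08 and -0.01 on NC, a difference of 0.26 ± 0.12 (adjusted p = 0.202). Rpl36a had 6.72 and 6.91, against 6.56 and 6.65 on NC, a difference of 0.20 ± 0.18 (adjusted p = 0.515). In both, the miR-365a arrays lay above the NC arrays without overlap, and so they did for Rps27l and Rpl17. The remaining genes of this group lay between 0.11 and 0.15 with overlapping arrays.

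The microRNA effects were also set against each other. The difference of the effects (miR-365a minus miR-193b) had a median of -0.28 over the 80 bright genes, with 74 of 80 below 0 (51.9% of all genes), and a median of -0.021 over all genes. No ribosomal protein gene passed this test, against 3.55% of all genes, and 1 of the 80 reached an unadjusted p under 0.05, Rpl7l1, against 20.2% of all genes. Rpl7l1, lowest after miR-193b and highest after miR-365a, had a difference of 0.51 ± 0.17 and an adjusted p of 0.172. Leaving out NC replicate 1 gave a median of -0.12, leaving out NC replicate 2 gave -0.44, and the deposited log2 values gave 0.023.

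The NC arrays of the sets, which received the same control microRNA, gave the 1 call of the family. Rpl39l is a paralog of Rpl39 known for its expression in testis. Its level was 2.76 and 3.22 on the NC arrays of the 0.6 set, against -0.66 and -0.68 on the NC arrays of the 0.2 set. It was likewise 2.83 and 3.30 on the miR-365a arrays and -0.36 and -0.51 on the miR-193b arrays. All 4 arrays of the 0.6 set were high and all 4 of the 0.2 set were low, with no overlap. The NC difference (0.6 minus 0.2) was 3.66 ± 0.21, a 12.6-fold change, with an adjusted p of 0.00143. All of its arrays were well above background.

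Within each set Rpl39l differed little with the microRNA. Its difference was 0.24 ± 0.21 after miR-193b (adjusted p = 0.544) and 0.075 ± 0.21 after miR-365a (adjusted p = 0.879). Its only probe lies at chr16:10174657-10174716 (+) on mm9, and in its best ungapped match to a probe of Rpl39 it shared 22 of 53 bases. Rpl39 itself differed between the NC sets by 0.55 ± 0.17 (adjusted p = 0.081). Amount, slide and scan all separate the sets, so what sets Rpl39l apart cannot be told apart from them.

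For the family as a whole, the NC arrays of the 0.6 set stood above those of the 0.2 set by a median of 0.22, against 0.12 over all genes. Genes above 0 numbered 77 of 81 (61.0% of all genes). The 1 call compares with 15.6% of all genes called, and 8 ribosomal protein genes reached an unadjusted p under 0.05, against 34.7% of all genes. On single arrays, 45 of 80 genes had both NC arrays of the 0.6 set above both of the 0.2 set (40.3% of all genes), and 0 had both below (21.3% of all genes). After quantile normalization the median was -0.013, with 38 of 81 above 0.

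Other paralogs were compared with their partners, since their proteins can replace the partner in some ribosomes or act outside them. Rps27l, a p53-induced paralog of Rps27, had 6.25 and 6.44 on the miR-193b arrays, against 6.07 and 6.30 on NC, and overlapped. It had 6.31 and 6.42 on the miR-365a arrays, against 6.14 and 6.20 on NC, with both miR-365a arrays higher and a difference of 0.20 ± 0.14 (adjusted p = 0.402). Rps27 differed by 0.35 after miR-193b and 0.037 after miR-365a, and its brightest probe lies on chromosome 9 in mm9 while the RefSeq table places the gene on chromosome 3.

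Rpl22l1, the paralog of Rpl22, had 5.77 and 6.0 on the miR-193b arrays, against 5.43 and 5.85 on NC, and 5.71 and 5.93 on the miR-365a arrays, against 5.77 and 5.94 on NC. Its differences, 0.24 and -0.039, lay near the family's medians. Rpl22 differed by 0.35 and -0.015. Rpl7 differed by 0.21 after miR-193b and -0.12 after miR-365a, opposite in sign to Rpl7l1 in both.

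**Figure D4:**
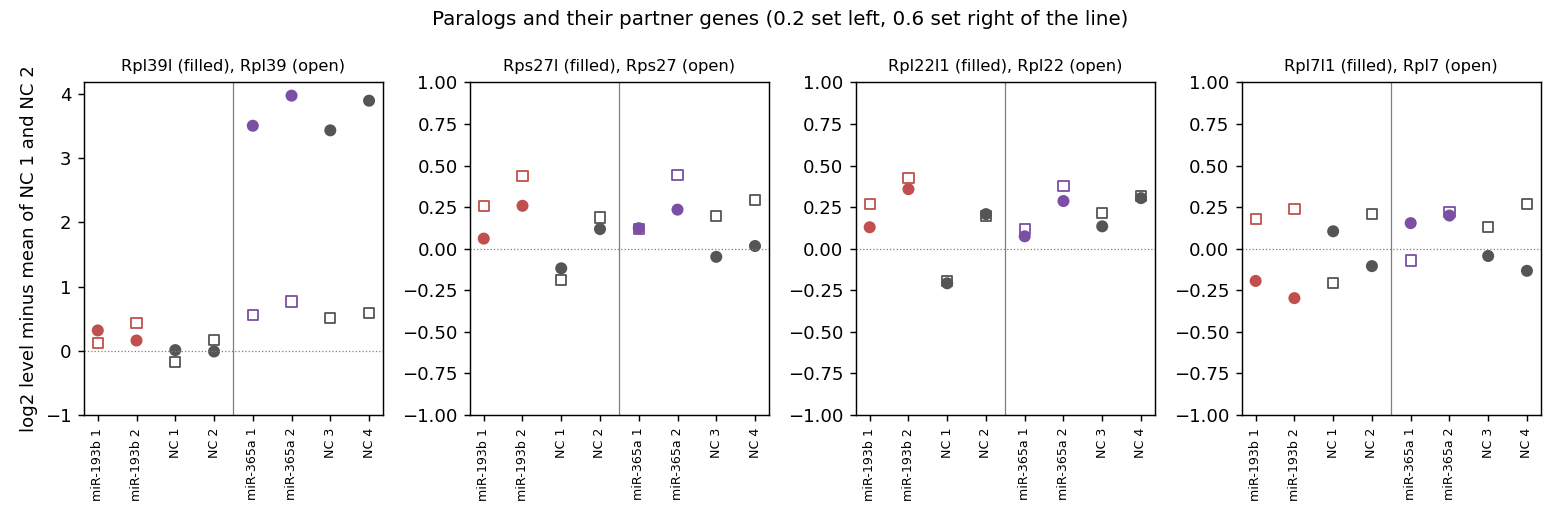
Log2 level of 4 paralogs (filled circles) and their partner genes (open squares) on each array (horizontal axis), minus the gene's own mean over NC replicates 1 and 2 (vertical axis); the 0.2 set is left of the line and the 0.6 set right of it, and the Rpl39l panel has a longer vertical axis than the others. Rpl39l stands apart on all arrays of the 0.6 set (NC difference of 3.66), while the other genes stay within 1 of 0.

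The dimmest members carried little information. Rpl10l, a paralog of Rpl10 needed in spermatogenesis, was well above background on 0 arrays and was not tested. Rps4y2 was above background on 1 array and was not tested either. Rpl3l, a paralog of Rpl3 found mainly in muscle, was above background on 2 arrays, both of miR-193b. It had -4.27 and -2.64 there, against -6.44 on NC replicate 2, where it was not above background, and its spot on NC replicate 1 was left out for a flag. Set against the lowest signal above background on that array, the mean of its miR-193b arrays was at least 4.59-fold higher. The bound holds for that mean and not for each miR-193b array. It also rests on 1 NC array. Rpl3l did not pass the test (adjusted p = 0.0956), and it was tested only because its miR-193b arrays were bright enough.

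Where a gene had several probes, these often differed in sign. The 183 tested probes of the family included 102 besides the brightest of each gene, and these had median differences of 0.21 after miR-193b and -0.031 after miR-365a. Of 61 genes with at least 2 tested probes, 10 had probes on both sides of 0 after miR-193b and 31 after miR-365a. Some of these values lay within their SE of 0, such as those of Rps2 (-0.0019 and 0.010) and Rpl38 (-0.016 and 0.0099) after miR-365a. A difference in sign is then no sign of disagreement. The widest spread after miR-193b was that of Rpl6, from 0.11 to 3.99, where the highest value came from a dim probe with an SE of 2.21 and the other 3 probes lay at most at 0.19. Rps15a came next, with a dim probe at -1.08 ± 0.39, above background on 6 arrays, and its other 2 probes at 0.20 and 0.40. The 7 probes of Rpl17 lay between -0.0027 and 1.12. Rps24, whose probes were designed on several of its transcripts, had the widest spread after miR-365a. Its probe for the transcript NM_011297 stood at 0.70 ± 0.26 after miR-365a and -0.49 ± 0.26 after miR-193b (adjusted p = 0.129 and 0.336), while its other 3 probes lay between -0.12 and -0.042 after miR-365a and between 0.31 and 0.46 after miR-193b. Rpl22 had 1 probe at 0.35 and the other at -0.43 after miR-193b. The 3 probes of Rps3 lay between -0.27 and 0.087 after miR-365a, and those of Rpl36a between -0.055 and 0.20. The 2 probes of Rps25 lay at 0.12 and 0.35 there. None of the 183 probes passed the test in either comparison, and the smallest adjusted p was 0.0994 after miR-193b and 0.0829 after miR-365a.

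The gene name rule leaves out some ribosomal proteins with other symbols. Rpsa, Fau, Rpl36al and Gnb2l1, which encodes the scaffold protein RACK1 of the small subunit, were tested. None of these 4 passed in either microRNA comparison, and 0 reached an unadjusted p under 0.05. They ran from 0.24 to 0.44 after miR-193b and from -0.26 to -0.060 after miR-365a.

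Other genes of the translation machinery had some calls. Over all genes the share called was 2.89% after miR-193b and 15.9% after miR-365a, and the lists with a call after miR-365a had shares from 5.56% to 27.3%, each from at most 4 genes. Of 18 genes for elongation factors and other mRNAs with a TOP tract, 0 passed after miR-193b, also at an unadjusted p under 0.05, and 1 passed after miR-365a, the chaperonin subunit gene Cct4, which fell by 0.72 on the log2 scale. Of 24 initiation factor genes, 0 passed after miR-193b (1 at an unadjusted p under 0.05) and 2 fell after miR-365a. Eif5, which stimulates GTP hydrolysis by eIF2, fell by 0.87 (adjusted p = 0.00615), and its other probe fell by 0.77. Eif1, which acts in start codon choice, fell by 0.59, while its other probe stood at 0.015. Eif5 passed whichever array was left out (highest adjusted p 0.0490), whereas Cct4 and Eif1 lost their calls without any 1 array other than NC replicates 1 and 2 (adjusted p up to 0.161 for Cct4 and 0.181 for Eif1).

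Regulators of mTORC1 and of TOP mRNAs act upstream of ribosomal protein translation. Rheb, the GTPase that activates mTORC1, had levels of -0.70 and -0.77 on the miR-365a arrays, against 0.35 and 0.44 on the NC arrays of the 0.6 set. Both miR-365a arrays lay below both NC arrays, by 1.13 ± 0.12 on average (adjusted p = 0.00461). A second probe of Rheb fell by 1.15, and the effects of the microRNAs on Rheb differed by -1.42 (adjusted p = 0.0162). In the same cells the ribosomal protein genes had the median of -0.033 given above, and their translation was not measured.

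Of the 17 regulators on that list, 0 passed after miR-193b (3 at an unadjusted p under 0.05). After miR-365a, 3 fell, and 1 rose, Sesn2, a stress-induced inhibitor of mTORC1, by 0.94. Besides Rheb, these were Rps6ka1, a ribosomal S6 kinase of the RSK family, which fell by 0.57, and Larp4, an mRNA-binding relative of LARP1, which fell by 1.23. The other probe of Larp4 stood at -0.11 with an adjusted p of 0.698, so its probes did not give the same call. In the test between the microRNA effects Rheb and Larp4 were the only genes of the 7 lists called. After miR-365a, Rheb and Larp4 passed whichever array was left out (highest adjusted p 0.0389 for Rheb and 0.0368 for Larp4). Rps6ka1 lost its call without any 1 array of the 0.6 set (adjusted p up to 0.107), and Sesn2 lost it without any 1 of the 8 arrays (up to 0.190). Between the microRNA effects, Larp4 lost its call without any 1 of the 8 arrays (up to 0.149), and Rheb without any 1 other than NC replicates 1 and 2 (up to 0.0744).

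Of 11 genes for dedicated chaperones and importers of ribosomal proteins, 0 passed after miR-193b (2 at an unadjusted p under 0.05) and 3 after miR-365a. Kpnb1, importin beta-1, had 0.36 and -0.15 on the miR-365a arrays, against 2.14 and 1.69 on NC, and fell by 1.81. Tsr2, the chaperone of the Rps26 protein, fell by 0.76. Tnpo1, another importin, rose by 0.86, while its other probes stood at 0.040 and -0.33. Kpnb1 passed whichever array was left out (highest adjusted p 0.0385), and Tsr2 and Tnpo1 lost their calls without any 1 array of the 0.6 set (adjusted p up to 0.125 for Tsr2 and 0.111 for Tnpo1). Rps26 had 7.73 and 7.96 on the miR-365a arrays, against 7.82 and 7.89 on NC, and overlapped.

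Of 7 genes for ribosome rescue and hibernation, Abce1, the factor that splits ribosomes for recycling, fell by 0.87 after miR-193b (adjusted p = 0.0423). It was the only call of the gene lists in that comparison. Its levels were 3.25 and 3.06 on the miR-193b arrays, against 4.14 and 3.9 on NC, and the call was lost without any 1 of the 8 arrays (adjusted p up to 0.169). Habp4, a ribosome-binding relative of Serbp1, rose by 1.09 after miR-365a. The last list held 5 genes around MDM2 and p53 (Mdm2, Mdm4, Trp53, Cdkn1a and Cdkn2a). Of these, 0 passed after miR-193b (1 at an unadjusted p under 0.05). After miR-365a 1 rose, Cdkn2a, by 0.84, with its other probe at 1.13. Habp4 lost its call without any 1 array other than NC replicates 1 and 2 (adjusted p up to 0.150), and Cdkn2a without any 1 array of the 0.6 set (up to 0.108). Between the NC sets, Eif4g1 and Rps6kb2 were higher and Vim and Ipo7 lower in the 0.6 set, and these were the only calls of the 7 lists there (15.6% of all genes). None of the 4 passed with slide as a random block (adjusted p = 0.0990 for Eif4g1, 0.0580 for Rps6kb2, 0.109 for Vim and 0.101 for Ipo7). Vim was dim, at -3.32 and -3.30 on the NC arrays of the 0.2 set, both above background. On the NC arrays of the 0.6 set it had -8.77 and -8.52, neither above background, and was on average at least 8.11-fold lower. The miR-365a arrays of that set had -4.18 and -8.96, so Vim was not low on every array of the 0.6 set. It was tested only through arrays on which it is high. Eif4g1 and Ipo7 lost these calls without any 1 of the 8 arrays (adjusted p up to 0.178 and 0.157), Rps6kb2 without any 1 NC array (up to 0.102), and Vim without any 1 array other than those of miR-365a (up to 0.172).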

How the data were processed

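Cy3-labelled total RNA was hybridised to Agilent mouse arrays, 8 in all. Per the file headers, the intensity values are Feature Extraction 10.7.3.1 processed signals (background-subtracted, not normalized between arrays). The deposited log2 values of the same arrays, for which the submitters' processing notes name limma, served as an alternative. Their background correction is not given in the sources used here, each array's median lay between 7.11 and 7.12, and across spots each column correlated best with the array it is named for (r = 0.965 to 0.981).

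Control and flagged spots were left out. From the log2 signal the 75th percentile over gene spots was subtracted for every array, spots of a probe were averaged, and the brightest probe stood for a gene. Testing required a probe well above background on both replicates of any of the 4 transfection and amount combinations. All 8 arrays were fitted with limma 3.58.1 in R 4.3.3 (terms for amount set, miR-193b and miR-365a; 4 residual and 2.30 prior degrees of freedom), and p-values were adjusted over all genes tested with a threshold of 0.05. By slide number, slide 1 held miR-193b replicate 1 and NC replicate 1, slide 2 held NC replicate 2, slide 3 held miR-193b replicate 2, and slide 4 held the 0.6 set. The fit was tested on simulated data with independent noise for each gene and array. That simulation does not cover a joint shift of the family. Probes keep the mm9 positions in their files, which are not mixed with the GRCm38.p6 positions of RefSeq. For 5 genes (Rpl36, Rps12l2, Rps27, Rps29 and Rps4x) no probe could be placed on the gene's own chromosome. This count also takes in any gene whose name gave no single chromosome in RefSeq. In addition, 8 brightest probes have an accession with no current symbol, and Rps4y2 is now Rps4l. Precision is limited by the number of arrays.

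The family and the gene lists were chosen with earlier results of these data known. Named are the 8 highest and 8 lowest differences of each comparison, genes of set roles (P stalk, 5S particle, Rps6, Rps27a, paralog pairs), genes whose probes disagree, and called genes of 7 lists. Of the list genes, each that passed is named. Some items are not reported here.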

Additional observations from a re-analysis of the deposited data

Results flagged for a closer look

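On the 4 NC arrays, 5 of 80 ribosomal protein genes had 1 array far from the other 3, by a gap over range above Dixon's critical value for 4 values; chance gives about 1 in 20. In each, NC replicate 1 was the low array. For 4 of them, the ratio of gap to range was 0.922 for Rpl5 (5.0 against 5.42 to 5.45), 0.884 for Rpl29 (7.99 against 8.19 to 8.21), 0.860 for Rps29 (6.98 against 7.32 to 7.37) and 0.836 for Rps19 (5.87 against 6.08 to 6.13). The 4 NC arrays span both amount sets, so these ratios hold the difference between sets as well.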

How the results depend on the processing

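No ribosomal protein gene was called in either microRNA comparison, or in the difference between them, under any of the 22 or 23 alternatives run for each. The median after miR-365a stayed within the replicate spread in all of them. The other medians are given in the order miR-193b, difference of effects, NC sets. They were 0.033, -0.031 and -0.013 after quantile normalization, 0.067, -0.082 and 0.0062 after cyclic loess, and 0.0051, 0.023 and 0.047 in the deposited log2 values. Centring on the family's own median, chosen after seeing the data, gave 0.062, -0.10 and 0.021. Leaving out 1 array at a time gave 0.071 to 0.40, -0.44 to -0.12 and 0.069 to 0.40. The cause of these shifts was not tested. Between the NC sets the calls numbered 4 with normexp background correction and in the deposited log2 values, 3 with a trended variance and over single probes, 2 with only the probes that were well above background everywhere, 1 to 4 as arrays were left out, and 0 without the divergent paralogs, a list that leaves out Rpl39l itself. Of the 19 calls named from the gene lists, 4 held under every alternative run (Eif5, Kpnb1, Larp4 and Rheb after miR-365a), 15 were lost without the filter on dim probes, and 0 changed direction. No paired analysis was possible because the labels give no replicate numbers that pair arrays across groups.

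Over all genes the calls moved more. After miR-193b, 517 genes became 1006 with normexp, 1025 with a trended variance, 892 with only the probes bright on every array, 844 in the deposited values, 130 with the family's centring, 11 without a filter on dim probes, 0 with the 0.2 set fitted alone, and 8 to 276 as arrays were left out. After miR-365a, 2846 became 1059 without the filter, 1582 with the family's centring and 591 to 2873 as arrays were left out. For the difference, 634 became 1128 with a trended variance, 1078 with only the probes bright on every array, 1053 with normexp, 1012 with slide as a random block, 990 in the deposited values, 128 with the family's centring, 0 without the filter and 0 to 565 as arrays were left out. Between the NC sets, 2792 became 1409 with slide as a random block, 1659 with the family's centring, 1012 without the filter and 477 to 2394 as arrays were left out. With 2 arrays a group, the 95% intervals of the 80 bright ribosomal protein genes had a median half-width of 0.40 on the log2 scale in either microRNA comparison.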
